A study of Mus musculus with 6 samples.

Results

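The genes described here are 36 mouse genes of the endoplasmic reticulum (ER) stress response and the integrated stress response, chosen by name as members of these pathways and found by their symbols among 28822 gene identifiers. They were measured by poly(A) RNA sequencing in macrophages grown from mouse bone marrow (bone marrow-derived macrophages, BMDMs), which shared a Transwell with HT22 cells, a mouse hippocampal neuronal line. The treated group (3 samples) received BW723C86, an agonist of the serotonin receptor 5-HT2B, and the control group (3 samples) received its vehicle, DMSO. In both groups the HT22 cells in the lower chamber had first been deprived of oxygen and glucose for 2 h, so the comparison holds no sample without that injury. BMDMs are named in the series' title and, beside HT22, in the labels, whereas the design text also allows BV2 microglia in the upper chamber. No source used here gives the dose, the length of treatment, the strain and age of the mice or the number of separate cultures.

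Secretory and membrane proteins fold in the ER, and 3 membrane sensors report on that folding. PERK phosphorylates the translation factor eIF2, as do the kinases HRI, PKR and GCN2 on other stresses, and this slows general translation while letting ATF4 be made (the integrated stress response). IRE1 splices the mRNA of Xbp1 into a form that encodes an active factor for genes of ER-associated degradation (ERAD), and ATF6 is cut in the Golgi to release a factor for ER chaperone genes. Phosphorylation, splicing and cleavage were not measured. The values below are transcript levels per gene, and the 36 genes are ordered by the arm to which textbook knowledge assigns them, 20 to ATF4, 6 to XBP1 and 10 to ATF6, although XBP1 and ATF6 share many targets.

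Total counts ran from 58841307 to 75931615 per library. Macrophage markers summed to 31574 to 32687 CPM (counts scaled to the size of the library) in BW723C86 samples and 35027 to 35824 CPM in DMSO samples, with 4 of the 8 higher and 3 lower. Of 8 HT22 or neuronal markers 6 were in the table, Map2 and Nefl had no count in any library, and the sum was at most 0.401 CPM with BW723C86 and 0.141 CPM with DMSO. Summed markers of other cell types moved with the treatment. For neutrophils (5 of 8 lower) they were 26.9 to 31.4 CPM with BW723C86 and 197 to 207 CPM with DMSO. For monocytes (6 of 6 lower) they were 416 to 437 CPM with BW723C86 and 2831 to 2863 CPM with DMSO. For mast cells and basophils (5 of 6 in the table, 3 lower) they were 54.7 to 59.4 CPM with BW723C86 and 96.8 to 105 CPM with DMSO. Dendritic cell markers (3 of 6 higher) summed to 44.8 to 47.0 CPM with BW723C86 and 12.5 to 15.6 CPM with DMSO. Plasma cells, though not B cells in general, are rich in these genes through their secretory load. Of 8 plasma and B cell markers 4 fell (Ighm, Cd79a, Cd79b and Ms4a1) and Sdc1 rose. The sum of the 8 was 36.8 to 48.3 CPM with BW723C86 and 30.4 to 31.6 CPM with DMSO. Most of that sum was Sdc1, with 35.9 ± 5.2 CPM with BW723C86 and 18.8 ± 0.592 CPM with DMSO. Ighm, among the 4 that fell, had 6.24 ± 0.571 CPM with BW723C86 and 9.44 ± 0.794 CPM with DMSO. The plasma cell gene Jchain stayed at or under 0.122 CPM in every library. Fibroblast markers summed to 1.08 to 2.28 CPM with BW723C86 and 1.97 to 2.16 CPM with DMSO. Pdgfra and Pdgfrb did not pass the test, and Col1a1, Col1a2, Col3a1 and Dcn had too few counts to be tested. For the same reason Camp, Mpo and Retnlg (neutrophils), Xcr1 and Siglech (dendritic cells) and Fcer1a (mast cells and basophils) were not tested. Nor were Jchain, Mzb1 and the neuronal markers. The part of other cells in the results below was not tested, and in these bulk samples fewer cells of a type and less RNA per cell cannot be told apart.

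With BW723C86 genes of the 3 arms did not move in a single direction. The largest change was in the ATF4 arm, where Stc2, a secreted glycoprotein gene of low level, had 0.857 ± 0.466 CPM with BW723C86 and 3.04 ± 0.207 CPM with DMSO (SD, n = 3 each). In the XBP1 arm the transcripts of the sensor (Ern1) and of the factor (Xbp1) fell, whereas the ERAD genes Syvn1, Herpud1 and Sel1l rose. In the ATF6 arm Sdf2l1, Pdia4, Calr and Hyou1 rose and no gene passed as lower. In the ATF4 arm the phosphatase subunit gene Ppp1r15a rose, its relative Ppp1r15b and the serine synthesis genes Phgdh and Psat1 fell, and Ddit3, which encodes the factor CHOP, was at 36.8 ± 2.68 CPM with BW723C86 and 36.5 ± 0.879 CPM with DMSO (SD, n = 3 each).

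The 36 genes all passed the filter on low counts, and 20 passed edgeR's quasi-likelihood test at an adjusted p of 0.05, 12 higher and 8 lower, against 42.0% of all 15567 genes tested. Among the 10224 genes with at least 5 CPM in 3 samples, a level that 34 of the 36 reach, the share was 55.5%, so the share of members (55.6%) was near that background. The median absolute log2 fold change was 0.19 for the 36 genes and 0.27 for all tested genes, and against a fold of 1.2 in place of no change 5 of the 36 passed (Stc2, Ppp1r15a, Sdf2l1, Xbp1 and Syvn1), where 20.6% of all genes did. By arm, 5 of 20 ATF4 genes were higher and 6 lower (median log2 fold change -0.05), 3 of 6 XBP1 genes were higher and 2 lower (median 0.20), and 4 of 10 ATF6 genes were higher and 0 lower (median 0.10), beside a median of 0.00 over all genes. These splits depend on the scaling: with library totals in place of TMM, 3 ATF4 genes were higher and 9 lower, and 3 ATF6 genes were higher and 2 lower, while among all calls 38.5% were higher, against 50.8% with TMM. The groups did not overlap in CPM for 23 of the 36 (52.3% of all tested genes). Per kilobase of annotated exon, Calr had the highest level of the 36, with means of 254 CPM per kb in BW723C86 samples and 205 in DMSO samples, and Vldlr the lowest, with 0.0768 in BW723C86 samples and 0.116 in DMSO samples.

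**Figure D1:**
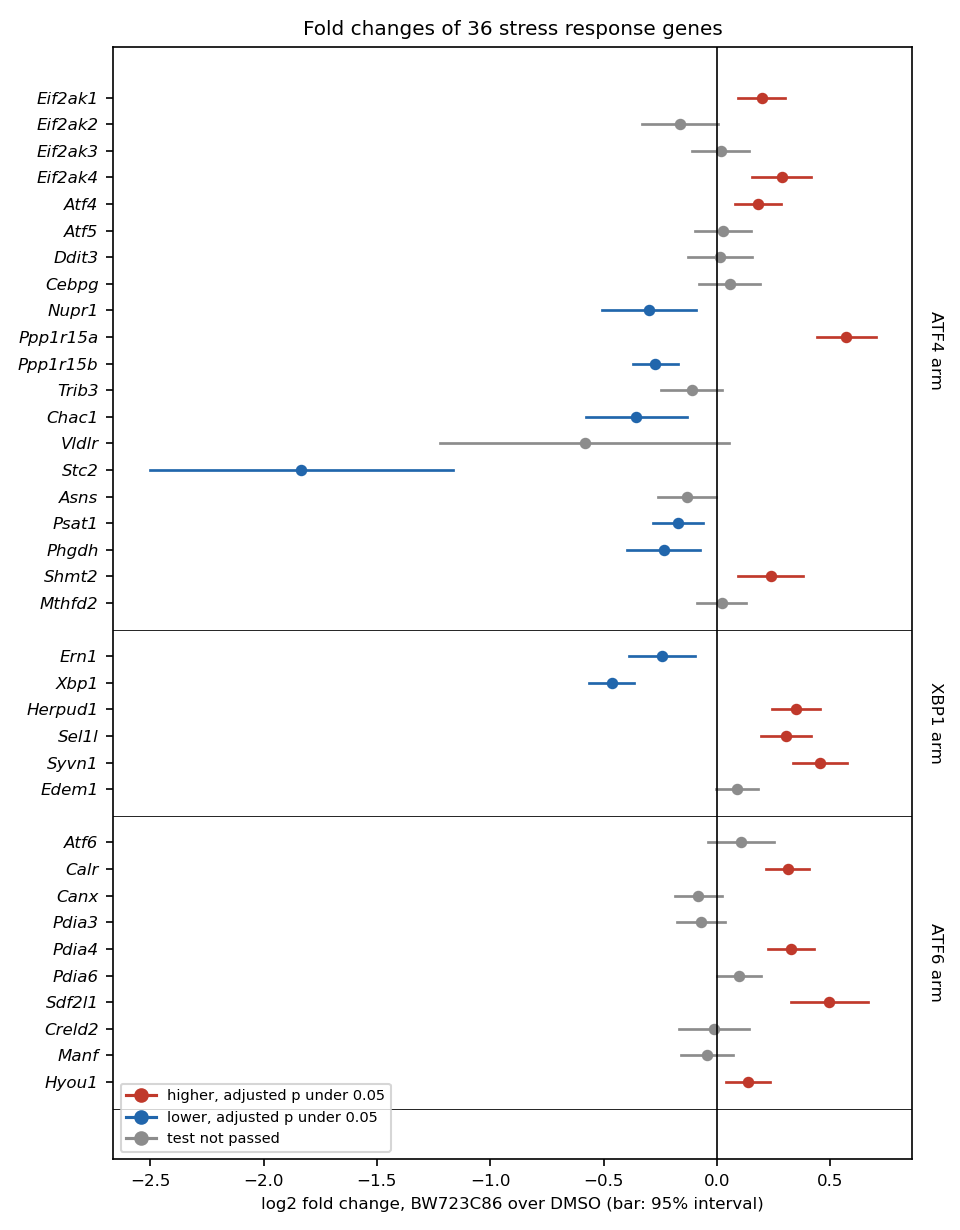
Log2 fold change of each of the 36 genes, BW723C86 over DMSO, with its 95% interval (horizontal axis), by arm. The 12 genes in red and 8 in blue passed edgeR's test, and Stc2, at -1.83, lies far below the others.

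The factors of these arms read short elements in the DNA before the start of a gene. The ER stress response element (ERSE, searched as CCAAT, 9 bases of any kind and CCACG) is bound by the factor NF-Y at CCAAT and by ATF6 or XBP1 at CCACG, and ERSE-II (ATTGG, 1 base of any kind and CCACG) is a shorter form. RefSeq promoter windows (250 bases before to 50 after the start, build GRCm38.p6) matched 32 of the 36 symbols, and both strands were searched. The 32 genes have 36 windows. ERSE was found in 5 of the genes (5 of their 36 windows), against 0.119% of all 32851 windows. ERSE-II was found in 1 gene (1 of the 36 windows), against 0.0365%. These matches are shown, together with those of Hspa5 (the chaperone BiP) and Hsp90b1 (GRP94), because genes with the same element went different ways. Positions count from the start, capitals mark the fixed letters, each sequence runs 5′ to 3′ on the strand of its gene, and a match on the opposite strand reads CGTGG before ATTGG.
Syvn1 (chr19:6046497-6046575, plus strand, -79 to -1): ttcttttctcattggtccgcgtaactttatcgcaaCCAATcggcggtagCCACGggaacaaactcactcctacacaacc
Calr (chr8:84847040-84847128, minus strand, -197 to -109): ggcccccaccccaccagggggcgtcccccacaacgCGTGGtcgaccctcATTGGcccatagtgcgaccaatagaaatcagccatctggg
Pdia6 (chr12:17266456-17266544, plus strand, -133 to -45): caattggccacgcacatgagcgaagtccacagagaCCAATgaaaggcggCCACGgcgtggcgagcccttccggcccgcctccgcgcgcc
Creld2 (chr15:88819485-88819573, plus strand, -161 to -73): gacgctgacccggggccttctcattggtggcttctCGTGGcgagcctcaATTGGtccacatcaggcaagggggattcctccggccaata
Canx (chr11:50325765-50325853, minus strand, -180 to -92): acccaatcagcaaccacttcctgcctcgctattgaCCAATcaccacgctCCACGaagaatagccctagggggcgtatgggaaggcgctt
Hspa5 (chr2:34771990-34772078, plus strand, -100 to -12): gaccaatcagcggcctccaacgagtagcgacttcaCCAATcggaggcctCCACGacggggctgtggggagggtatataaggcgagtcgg
Hsp90b1 (chr10:86705498-86705586, minus strand, -142 to -54): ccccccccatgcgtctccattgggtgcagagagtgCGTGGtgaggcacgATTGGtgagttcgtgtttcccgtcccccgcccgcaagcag
Hsp90b1 (chr10:86705603-86705691, minus strand, -247 to -159): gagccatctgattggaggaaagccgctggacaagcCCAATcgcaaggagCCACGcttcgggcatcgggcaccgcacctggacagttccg
Herpud1 (chr8:94386342-94386422, plus strand, -87 to -7): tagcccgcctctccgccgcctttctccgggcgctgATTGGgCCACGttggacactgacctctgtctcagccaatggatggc

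Syvn1, Calr and Herpud1, which carry these elements, rose. Pdia6, Creld2 and Canx did not pass the test, at log2 fold changes of 0.10, -0.01 and -0.08. Hspa5 fell, as did Hsp90b1, which has 2 matches. The core CCACG lies inside both elements and, read on the other strand, inside the XBP1 motif TGACGTGG. Searched alone, CCACG stood in 24 of the 36 windows of the 32 genes (23 genes), against 32.8% of all windows. TGACGTGG itself was found in 0 of the 32 (0.676% of all windows). A match is a description of these letters, and whether a factor bound there was not measured.

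The C/EBP-ATF response element (TGATGNAA) is read by ATF4 with a C/EBP partner. It was found in 6 of the 36 windows of the 32 genes (6 genes), against 3.97% of all windows. The 5 matches that lie before the start are shown, since they belong to genes that rose, fell or did not pass. Capitals again mark the fixed letters, and a match on the opposite strand reads TT, any base and CATCA. The remaining match, in Trib3, lay 15 to 22 bases after the start.
Herpud1 (chr8:94386282-94386359, plus strand, -147 to -70): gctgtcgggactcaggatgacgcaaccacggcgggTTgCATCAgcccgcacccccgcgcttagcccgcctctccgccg
Asns (chr6:7693210-7693267, minus strand, -58 to -1): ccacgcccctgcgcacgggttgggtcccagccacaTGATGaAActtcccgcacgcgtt
Nupr1 (chr7:126625538-126625615, minus strand, -145 to -68): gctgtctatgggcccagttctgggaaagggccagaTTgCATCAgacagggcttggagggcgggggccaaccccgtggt
Chac1 (chr2:119351014-119351091, plus strand, -228 to -151): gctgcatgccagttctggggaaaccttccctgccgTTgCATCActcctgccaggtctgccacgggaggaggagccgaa
Vldlr (chr19:27216785-27216862, plus strand, -235 to -158): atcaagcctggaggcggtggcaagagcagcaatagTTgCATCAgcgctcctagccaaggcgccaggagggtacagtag

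Herpud1, with an ERSE-II and a C/EBP-ATF element, rose. Nupr1 and Chac1 fell. Asns, Vldlr and Trib3 did not pass, at log2 fold changes of -0.13, -0.58 and -0.11.

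**Figure D2:**
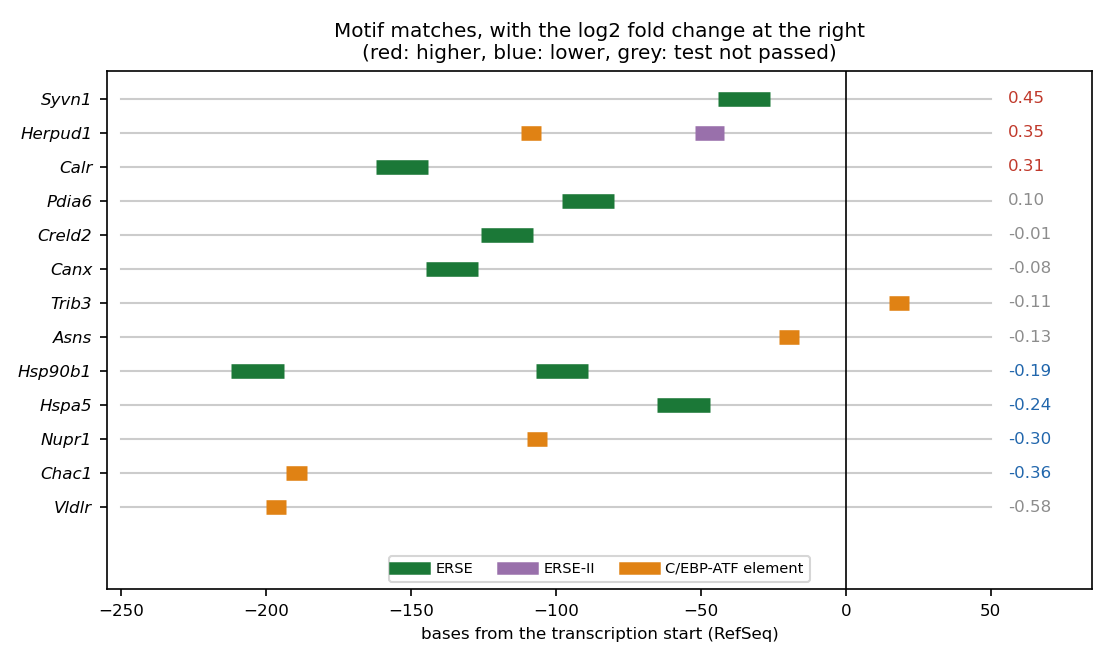
Positions of the motif matches in the RefSeq promoter windows of 13 genes (horizontal axis, bases from the transcription start), ordered by log2 fold change, which is printed at the right. ERSE matches stand in genes at 0.45 and at -0.24, and the C/EBP-ATF element stands in genes at 0.35 and at -0.58.

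Within the XBP1 arm the upstream genes and the degradation genes differed in direction. Xbp1 (ENSMUSG00000020484) had 383, 351 and 376 CPM in BW723C86 replicates 1 to 3, against 515, 512 and 503 CPM in DMSO replicates 1 to 3. Each treated sample thus lay below each control sample, and the log2 fold change was -0.46 (SE 0.05, edgeR adjusted p = 3.4e-06). Ern1 (ENSMUSG00000020715), which encodes the sensor and nuclease IRE1, had 47.4, 54.8 and 48.3 CPM with BW723C86, against 62.2, 55.3 and 60.4 CPM with DMSO. BW723C86 replicate 2 and DMSO replicate 2 were close to each other, and the log2 fold change was -0.24 (SE 0.07, adjusted p = 0.011). Without BW723C86 replicate 3, DMSO replicate 1 or DMSO replicate 3, Ern1 no longer passed (edgeR adjusted p = 0.055, 0.064 and 0.051), leaving 1 lower gene in the arm in place of 2.

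Syvn1 and Sel1l encode the HRD1 ubiquitin ligase and its partner, the core through which misfolded proteins leave the ER for the proteasome, and Herpud1 encodes a membrane protein of that complex. Syvn1 (ENSMUSG00000024807) had 64.2, 61.3 and 65.2 CPM with BW723C86, against 46.8, 48.2 and 44.4 CPM with DMSO. The groups were well apart, at a log2 fold change of 0.45 (SE 0.05, edgeR adjusted p = 2.2e-05). Herpud1 (ENSMUSG00000031770) had 137, 124 and 127 CPM with BW723C86, against 104, 101 and 100.4 CPM with DMSO. Sel1l (ENSMUSG00000020964) had 215, 243 and 236 CPM with BW723C86, against 185, 193 and 184 CPM with DMSO. Both rose, by 0.35 (SE 0.05, adjusted p = 8.7e-05) and 0.30 (SE 0.05, adjusted p = 0.00037) on the log2 scale by edgeR's test, without overlap between groups. Edem1 (ENSMUSG00000030104), encoding a factor that trims and hands over misfolded glycoproteins, had 301, 315 and 322 CPM with BW723C86, against 298, 292 and 293 CPM with DMSO. It did not pass (log2 fold change 0.09, 95% interval -0.01 to 0.18, edgeR adjusted p = 0.13), although the groups did not overlap, and it passed without BW723C86 replicate 1 (adjusted p = 0.049).

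**Figure D3:**
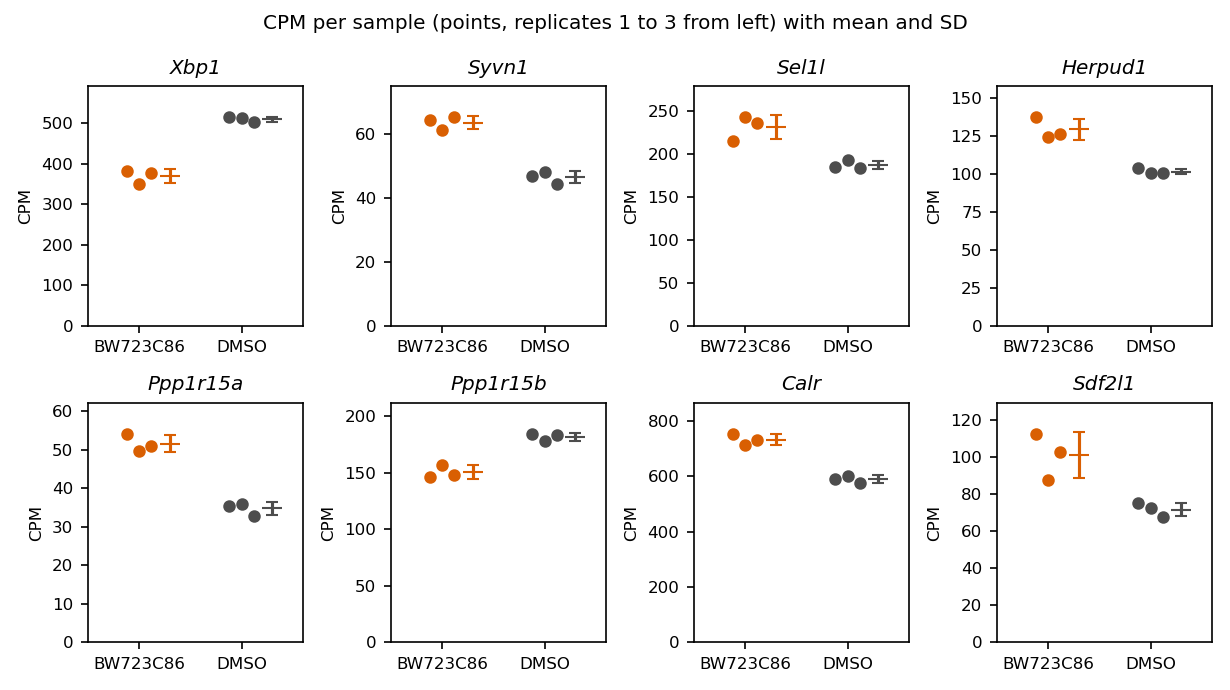
CPM of 8 genes in each sample (points), with the mean and SD of each group, BW723C86 left of DMSO. Xbp1 and Ppp1r15b are lower in each BW723C86 sample than in each DMSO sample, and the other 6 genes are higher.

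Other ERAD genes, a list of 16 outside the 36, held 10 that rose, 3 that fell and 3 that did not pass, with a median log2 fold change of 0.20. Over all genes tested 21.3% were higher and 20.7% lower. In either direction 42.0% passed, and 55.5% of genes with at least 5 CPM in 3 samples, which each gene of the list but Derl3 reached. Against a fold of 1.2, 4 of the 16 passed, where 20.6% of all genes did. The list was chosen with earlier results of these data known. Derl2, encoding a channel component, had 70.3 ± 2.66 CPM with BW723C86 and 51.2 ± 2.9 CPM with DMSO. Os9 and Erlec1, encoding lectins that pass glycoproteins to SEL1L, had 386 ± 13.6 and 28.7 ± 1.59 CPM with BW723C86, against 302 ± 5.29 and 20.7 ± 1.39 CPM with DMSO. Selenos, encoding a selenoprotein that tethers the VCP ATPase to the ER, had 56.4 ± 2.55 CPM with BW723C86 and 42.1 ± 0.499 CPM with DMSO. These 4 rose by 0.35 to 0.47 on the log2 scale (edgeR adjusted p = 3e-05 to 0.00021). Of 24 genes for the translocon, signal peptidase and COPII coat, by which proteins enter and leave the ER, 6 rose, 4 fell and 14 did not pass (median 0.02). Among them the COPII genes Sec24d and Sec31a rose by 0.40 and 0.26 on the log2 scale, the signal peptidase gene Spcs1 rose by 0.29, and Sec62, of the post-translational translocon, was at -0.34 (edgeR adjusted p = 0.00011 to 0.00036).

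In the ATF6 arm 4 of 9 chaperone and folding genes rose and 0 fell, beside 21.3% of all genes tested higher and 42.0% changed in either direction. Among genes with at least 5 CPM in 3 samples 55.5% changed. Sdf2l1 (ENSMUSG00000022769), encoding a cofactor that keeps BiP clients soluble, had 113, 87.9 and 103 CPM with BW723C86, against 75.0, 72.3 and 67.9 CPM with DMSO. BW723C86 replicate 2 was the lowest of its group and still above the control samples, and the log2 fold change was 0.49 (SE 0.08, edgeR adjusted p = 0.00024). Calr (ENSMUSG00000003814), encoding the calcium-binding lectin chaperone calreticulin, had 753, 712 and 731 CPM with BW723C86, against 592, 602 and 576 CPM with DMSO. Pdia4 (ENSMUSG00000025823), encoding the disulphide isomerase ERp72, had 239.6, 260.2 and 253 CPM with BW723C86, against 200.4, 194 and 205 CPM with DMSO. Both rose without overlap, by 0.31 (SE 0.04, adjusted p = 7.9e-05) and 0.33 (SE 0.05, adjusted p = 8.9e-05) by edgeR's test. Hyou1 (ENSMUSG00000032115), encoding the chaperone GRP170, had 125, 117 and 122 CPM with BW723C86, against 110.6, 109.7 and 110.8 CPM with DMSO. Its groups did not overlap, but its rise of 0.14 (SE 0.04, adjusted p = 0.027) was the call lost under the most alternatives. It did not pass edgeR's test when any library other than BW723C86 replicate 2 was left out (adjusted p = 0.075 to 0.11), without a filter on low counts (0.061), with the replicate number as a block (0.061) or with library totals in place of TMM scaling (0.3).

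Atf6 itself (ENSMUSG00000026663) had 76.9, 92.3 and 81.2 CPM with BW723C86, against 73.3, 79.5 and 80.1 CPM with DMSO. The groups overlapped and the 95% interval of the log2 fold change was -0.04 to 0.25. Canx, encoding the membrane lectin chaperone calnexin, had 276, 301 and 290.2 CPM with BW723C86, against 318, 297 and 303 CPM with DMSO. Pdia3, encoding its partner isomerase ERp57, had 387, 432 and 394 CPM with BW723C86, against 422, 423 and 429 CPM with DMSO. In both genes BW723C86 replicate 2 was the highest treated sample, inside the control range for Canx and above it for Pdia3. Neither passed (log2 fold changes -0.08 and -0.07), but without that replicate both passed as lower (-0.13, edgeR adjusted p = 0.0096, and -0.14, adjusted p = 0.0012), which gives 2 lower genes in the arm in place of 0. Calreticulin and calnexin act in the same cycle of glycoprotein folding, and their intervals did not overlap (0.22 to 0.41 for Calr and -0.19 to 0.02 for Canx). The disulphide isomerase gene Pdia6 was at 0.10 (95% interval 0.00 to 0.19, adjusted p = 0.094), Manf, encoding a secreted ER stress factor, at -0.04 (-0.16 to 0.07) and Creld2, encoding another secreted ER stress protein, at -0.01 (-0.17 to 0.14).

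The chaperones BiP and GRP94, the best known readouts of ER stress, were not among the 36 and went the other way from Calr and Pdia4. Hspa5 had 338, 371 and 349.5 CPM with BW723C86, against 412, 416 and 421 CPM with DMSO, and Hsp90b1 had 359.7, 373 and 360.4 CPM with BW723C86, against 418, 413 and 417 CPM with DMSO. In both genes each treated sample lay below each control sample (log2 fold changes -0.24, SE 0.05, edgeR adjusted p = 0.001, and -0.19, SE 0.04, adjusted p = 0.0022). Of 17 other ER chaperone and folding genes, these included, 3 rose, 5 fell and 9 did not pass (median 0.01). Over all genes tested 42.0% passed, and 55.5% of those with at least 5 CPM in 3 samples. Ero1l, encoding the oxidase that recharges disulphide isomerases, had 124 ± 7.84 CPM with BW723C86 and 194 ± 4.94 CPM with DMSO. Dnajb9, encoding a BiP cofactor that restrains IRE1, had 33.6 ± 3.05 CPM with BW723C86 and 44.2 ± 1.62 CPM with DMSO. Sil1, encoding the nucleotide exchange factor of BiP, rose, with 36.1 ± 3.32 CPM with BW723C86 and 23.8 ± 1.98 CPM with DMSO.

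**Figure D4:**
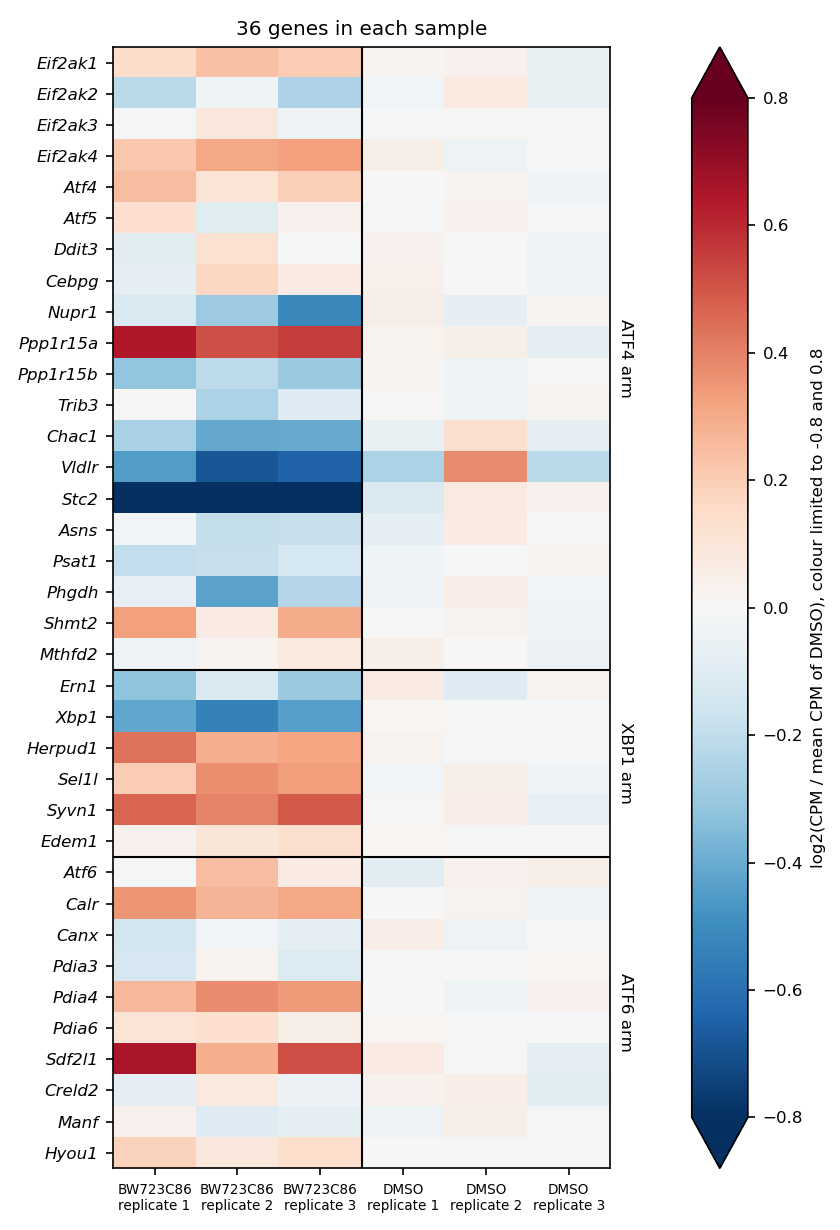
Log2 of each sample's CPM over the DMSO mean for the 36 genes (rows, by arm) in the 6 samples (columns, BW723C86 left of DMSO), red higher and blue lower. Rows that are red or blue across all 3 BW723C86 columns (Ppp1r15a, Xbp1, Syvn1, Stc2) stand beside rows that stay pale (Ddit3, Atf5, Mthfd2).

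The ATF4 arm begins with the 4 kinases of eIF2, of which 2 rose and 0 fell. As background, 42.0% of all genes tested changed, and 55.5% of those with at least 5 CPM in 3 samples. Eif2ak4 (ENSMUSG00000005102), encoding GCN2, which senses uncharged tRNA, had 35.2, 37.5 and 37.9 CPM with BW723C86, against 31.3, 29.4 and 30.1 CPM with DMSO. Eif2ak1 (ENSMUSG00000029613), encoding HRI, which senses haem and mitochondrial stress, had 88.1, 93.7 and 91.5 CPM with BW723C86, against 80.8, 81.5 and 76.3 CPM with DMSO. Neither overlapped, and the log2 fold changes were 0.29 (SE 0.06, edgeR adjusted p = 0.0019) and 0.20 (SE 0.05, adjusted p = 0.0056, and 0.077 with library totals in place of TMM scaling). Of the exon bases of Eif2ak1, 8.59% overlap Aimp2 on the opposite strand, which had a mean count of 883 against 5723. Eif2ak3, encoding the ER kinase PERK, had 37.6 ± 1.69 CPM with BW723C86 and 37.2 ± 0.267 CPM with DMSO (95% interval of the log2 fold change -0.11 to 0.14). Eif2ak2, encoding PKR, which senses double-stranded RNA, had 20.8, 23.5 and 20.4 CPM with BW723C86, against 23.8, 25.5 and 23.2 CPM with DMSO. It did not pass (log2 fold change -0.16, edgeR adjusted p = 0.11), except without BW723C86 replicate 2 (adjusted p = 0.011) and with library totals (0.031).

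Of the 5 member genes for factors of the integrated stress response, 1 rose, 1 fell and 3 did not pass. The share that passed was 42.0% over all genes tested and 55.5% among those with at least 5 CPM in 3 samples. Atf4 (ENSMUSG00000042406) had 366, 332 and 353 CPM with BW723C86, against 309, 314 and 303 CPM with DMSO. The groups did not overlap and the log2 fold change was 0.18 (SE 0.05, edgeR adjusted p = 0.0069, and 0.061 with library totals in place of TMM scaling). Nupr1 (ENSMUSG00000030717), encoding a small chromatin-associated stress protein, had 19.3, 17.2 and 14.7 CPM with BW723C86, against 21.7, 19.9 and 21.3 CPM with DMSO. It was at -0.30 (SE 0.10, adjusted p = 0.023) and did not pass edgeR's test without BW723C86 replicate 3, DMSO replicate 1 or DMSO replicate 3 (adjusted p = 0.084, 0.083 and 0.075). Ddit3 had 34.3, 39.6 and 36.4 CPM with BW723C86, against 37.4, 36.4 and 35.6 CPM with DMSO, so that the control range lay inside the treated range. Its 95% interval was -0.13 to 0.15 on the log2 scale, near that of Atf5, which encodes a factor of mitochondrial stress and shares 4.11% of its exon bases with Nup62 on the opposite strand (-0.10 to 0.15), and of Cebpg, which encodes a partner of ATF4 (-0.08 to 0.19).

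The 2 subunits that guide a phosphatase to eIF2 and so end the response went opposite ways. Ppp1r15a (ENSMUSG00000040435), encoding the stress-induced subunit GADD34, had 54.2, 49.7 and 51.0 CPM with BW723C86, against 35.5, 35.9 and 32.9 CPM with DMSO. Ppp1r15b (ENSMUSG00000046062), encoding the constitutive subunit CReP, had 146, 157 and 148 CPM with BW723C86, against 185, 178 and 183 CPM with DMSO. The groups of both genes were apart, at log2 fold changes of 0.57 (SE 0.06, edgeR adjusted p = 5.9e-06) and -0.27 (SE 0.05, adjusted p = 0.00035). Of the annotated exon bases of Ppp1r15b, 11.4% overlap a transcript on the opposite strand (Gm26616, with a mean count of 50.8 per library against 11300 for Ppp1r15b).

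Among targets of ATF4 and CHOP, Stc2 had the largest change of the 36 genes. Stc2 (ENSMUSG00000020303), encoding the secreted glycoprotein stanniocalcin-2, was a gene of low level, with 80, 42 and 35 counts in BW723C86 replicates 1 to 3 and 218, 193 and 242 counts in DMSO replicates 1 to 3. Its CPM were 1.4, 0.584 and 0.591 with BW723C86, against 2.81, 3.2 and 3.11 with DMSO, and the log2 fold change was -1.83 (SE 0.31, edgeR adjusted p = 0.00036). BW723C86 replicate 1 stood above the other 2 treated samples, and without it the log2 fold change was -2.37. Chac1 (ENSMUSG00000027313), encoding an enzyme that degrades glutathione, had 8.9, 7.99 and 8.06 CPM with BW723C86, against 10.2, 11.6 and 10.1 CPM with DMSO (log2 fold change -0.36, SE 0.10, edgeR adjusted p = 0.014, and 0.069 without DMSO replicate 2). Trib3, encoding a pseudokinase that restrains ATF4, had 80.6, 67.2 and 74.4 CPM with BW723C86, against 80.4, 78.2 and 81.4 CPM with DMSO. Trib3 did not pass (log2 fold change -0.11, adjusted p = 0.18), except without BW723C86 replicate 1 (edgeR adjusted p = 0.022) and with library totals (0.018). Vldlr, encoding a lipoprotein receptor, had 44 to 52 counts with BW723C86 and 76 to 91 with DMSO. Its groups did not overlap, but at this depth its interval was wide (log2 fold change -0.58, 95% interval -1.22 to 0.05).

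The enzymes that ATF4 controls for serine, one-carbon and asparagine synthesis were split. Phgdh (ENSMUSG00000053398), encoding the first enzyme of serine synthesis, had 189, 147 and 169 CPM with BW723C86, against 194, 206 and 195 CPM with DMSO. Psat1 (ENSMUSG00000024640), encoding the next enzyme, had 53.1, 53.5 and 55.2 CPM with BW723C86, against 59.3, 60.9 and 62.0 CPM with DMSO. Both were lower by edgeR's test, with log2 fold changes of -0.24 (SE 0.07, adjusted p = 0.023) and -0.17 (SE 0.05, adjusted p = 0.015). Without DMSO replicate 2 or DMSO replicate 3 neither passed (adjusted p = 0.094 and 0.053 for Phgdh, 0.05 and 0.071 for Psat1). Shmt2 (ENSMUSG00000025403), the mitochondrial enzyme that splits serine into glycine and a one-carbon unit, had 84.7, 70.6 and 82.8 CPM with BW723C86, against 67.1, 68.8 and 66.2 CPM with DMSO. Its rise of 0.24 (SE 0.07, adjusted p = 0.011) did not pass edgeR's test without BW723C86 replicate 3 or DMSO replicate 3 (adjusted p = 0.063 and 0.053). Mthfd2, the next mitochondrial one-carbon enzyme, was at 91.2 ± 3.72 CPM with BW723C86 and 90.0 ± 3.06 CPM with DMSO (95% interval of the log2 fold change -0.09 to 0.13). Asns, the asparagine synthetase gene, had 75.4, 67.0 and 67.3 CPM with BW723C86, against 72.9, 80.2 and 76.6 CPM with DMSO, and did not pass (log2 fold change -0.13, edgeR adjusted p = 0.096), except without BW723C86 replicate 1 (0.015) and with library totals (0.0094). In the ATF4 arm as a whole, 3 genes in place of 6 were lower without DMSO replicate 2 or without DMSO replicate 3, and 7 in place of 11 changed without DMSO replicate 3.

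Genes around this arm, from lists outside the 36, also moved in both directions. Of 10 other factors and targets of the integrated stress response 9 were in the table, and 3 rose and 4 fell (median -0.15). Atf3, encoding a stress-induced factor that also answers to other signals, had 159.6, 151 and 157 CPM with BW723C86, against 63.1, 65.9 and 58.9 CPM with DMSO. Its log2 fold change of 1.31 (SE 0.05, edgeR adjusted p = 4.7e-10) exceeded that of every member of the ATF4 arm that rose. Gdf15, encoding a stress-induced cytokine, rose by 0.92 on the log2 scale, whereas Jdp2, encoding a repressor related to ATF3, and Vegfa, encoding a vascular growth factor, were at -1.31 and -0.79. Of 16 genes for amino acid transport and synthesis, 4 rose, 5 fell and 7 did not pass (median -0.02). Beside both lists, 42.0% of all genes tested passed, and 55.5% of those with at least 5 CPM in 3 samples. The transporter genes Slc7a5 and Slc38a2 were at -0.51 and -0.54, and Slc1a5 and Slc7a11 at 0.47 and 0.31.

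Of 20 cytosolic tRNA synthetase genes, many of which ATF4 activates, 2 rose, 8 fell and 10 did not pass (median -0.08). Of all genes tested, 21.3% were higher and 20.7% lower. In either direction 42.0% passed, and 55.5% of genes with at least 5 CPM in 3 samples, which each synthetase gene reached. Against a fold of 1.2, 1 of the 20 passed, where 20.6% of all genes did. This list too was chosen with earlier results of these data known. Dars, Rars, Mars and Eprs were at log2 fold changes of -0.43, -0.33, -0.31 and -0.27 (edgeR adjusted p = 0.00011 to 0.00025). Among 8 genes for eIF2, the target of the 4 kinases, and for its exchange factor eIF2B, 2 rose, 4 fell and 2 did not pass (median -0.12). All 3 eIF2 subunit genes were lower. Eif2s2, the beta subunit, had 78.9 ± 5.14 CPM with BW723C86 and 122 ± 2.45 CPM with DMSO (log2 fold change -0.63, SE 0.05, edgeR adjusted p = 8e-07). Eif2s1, the alpha subunit that carries the phosphorylated serine, was at -0.20 (adjusted p = 0.013) and did not pass edgeR's test without BW723C86 replicate 3, DMSO replicate 1 or DMSO replicate 3 (0.061, 0.071 and 0.07). Eif2s3x, the gamma subunit, was at -0.24 and Eif2b2, of the exchange factor, at -0.45.

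Of 11 other regulators of the unfolded protein response and of the mitochondrial branch of the integrated stress response, 10 were in the table. Of these, 2 rose and 2 fell (median 0.09). Wfs1, encoding wolframin, an ER membrane protein that restrains ATF6, had 42.2, 37.97 and 40.5 CPM with BW723C86, against 11.9, 12.4 and 14.0 CPM with DMSO. The log2 fold change was 1.66 (SE 0.08, edgeR adjusted p = 2.2e-09), the largest rise among the 120 genes of these lists that were in the table. The largest fall among them was that of Cth, encoding an enzyme of cysteine synthesis and named here after its value was seen, at -1.73 (SE 0.31, edgeR adjusted p = 0.00054), with 0.546 ± 0.202 CPM with BW723C86 and 1.83 ± 0.268 CPM with DMSO. Atf6b, the relative of Atf6, was at -0.23 (adjusted p = 0.0029). Creb3, encoding another factor released from the ER membrane, was at 0.21 and Mbtps2, encoding a protease that cuts ATF6, at -0.21. Creb3 did not pass edgeR's test when any library other than BW723C86 replicate 2 was left out (adjusted p = 0.063 to 0.13) or with library totals (0.11), and Mbtps2 did not pass without BW723C86 replicate 3, DMSO replicate 1 or DMSO replicate 3 (0.081 to 0.13) or with the replicate block (0.051). Over the 8 lists together, 67 of 120 genes passed, 32 higher and 35 lower, against 42.0% of all genes tested and 55.5% of those with at least 5 CPM in 3 samples, so that their share was near the share of expressed genes.

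**Figure D5:**
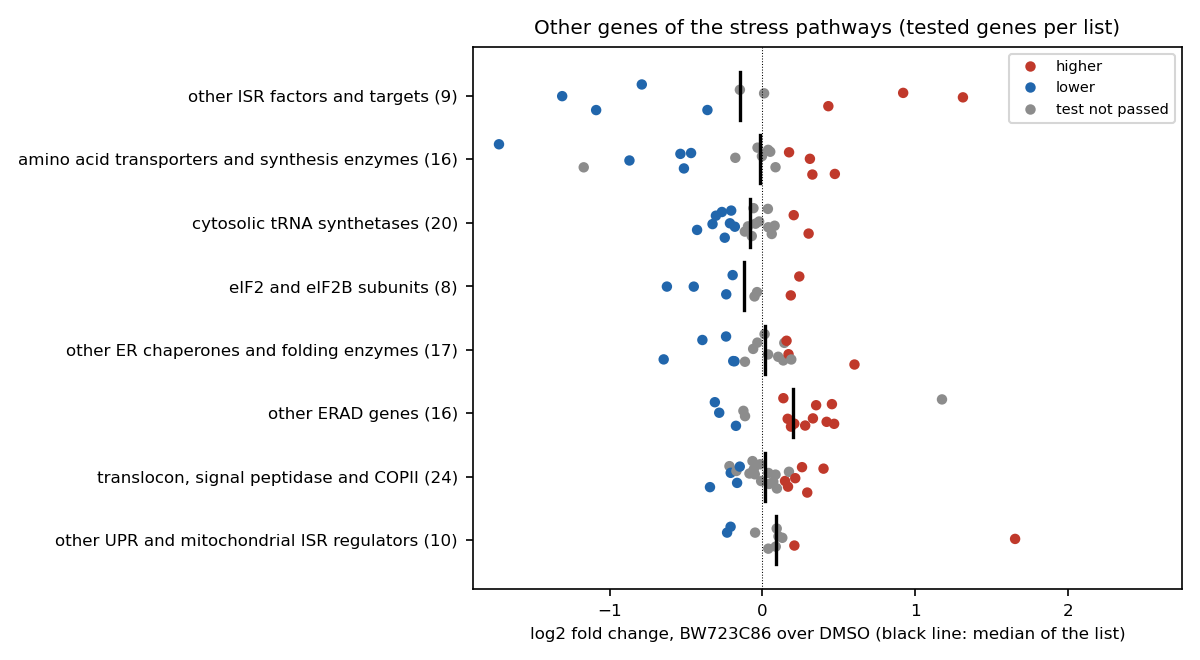
Log2 fold change, BW723C86 over DMSO (horizontal axis), of the tested genes of 8 lists of related genes, with the median of each list as a black line. The ERAD list has 10 genes higher and 3 lower, while the tRNA synthetase list has 2 higher and 8 lower. Against a fold of 1.2, 4 and 1 genes of these lists passed.

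The target of the agonist was measured in the same libraries. Htr2b, encoding 5-HT2B, was at 2.44 ± 0.405 CPM with BW723C86 and 0.122 ± 0.0424 CPM with DMSO (log2 fold change 4.28, SE 0.33, edgeR adjusted p = 3.2e-07). It had 124, 162 and 172 counts in BW723C86 replicates 1 to 3. With only 9, 5 and 13 counts in DMSO replicates 1 to 3, the size of its fold change is uncertain.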

How the data were processed

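Libraries were made from poly(A) RNA with dUTP marking and read as paired ends, per the labels' protocols. The submitters' processing notes name fastp, HISAT2, StringTie, edgeR and the builds GRCm39 and GRCh38, with no version or role, and no source says whether counting used strand. The authors deposited estimated counts per gene. Each value was already whole, so rounding altered none, and low values gathered at multiples of 4 (the value 4 occurs 4613 times, 3 occurs 2904 times), so counts divided by 4 were tried. GENCODE M21 gave symbols for 27005 of 28822 identifiers, exon lengths and the overlaps between the exons of genes. The coordinates printed with the promoter sequences are those of the RefSeq windows. Of 2 identifiers named Ddit3, the second (105 exon bases) had no count. Genes that overlap others or have near copies are uncertain.

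The members and lists were chosen with earlier results of these data known. The test was edgeR 4.0.16 in R 4.3.3 (robust quasi-likelihood F test, two-sided, TMM scaling, default filter on low counts), adjusted by Benjamini-Hochberg over 15567 genes at a threshold of 0.05. CPM are relative to the TMM-scaled library. A floor of 3 counts is 0.0395 to 0.051 CPM of the library totals without TMM scaling, and covers counting error only. Nothing says that replicates were separate cultures, so p-values cover the variation among these 6 libraries, possibly technical alone. No pair of replicates agreed within sampling noise, also after division by 4 (chi-square over its degrees of freedom 2.28 to 7.89). The highest values were those of BW723C86 replicate 2 with replicates 1 and 3 (7.89 and 5.47), and the other pairs were at 2.28 to 2.54. The 6 samples were kept, and without BW723C86 replicate 2 the changed genes numbered 7153 in place of 6534. Named beside the members were, of each list, up to 4 genes of smallest p past the threshold, with Hspa5, Hsp90b1 and Htr2b. Alternatives were RLE scaling, library totals, DESeq2 1.42.0, limma-voom (limma 3.58.1), other filters, counts divided by 4, a fold of 1.2, the replicate block and each library left out.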

Additional observations from a re-analysis of the deposited data

How the results depend on the processing

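Under the 15 alternatives, no gene of the 20 called changed sign, and 5 passed in each alternative that tested them. With the test against a fold of 1.2 set aside, 11 passed in each, these 5 included, and every other call was lost somewhere. Against that fold 3208 genes passed over the table (1609 higher, 1599 lower), with 2 in the ATF4 arm (1 higher, 1 lower), 2 in the XBP1 arm (1 higher, 1 lower) and 1, higher, in the ATF6 arm. Library totals in place of TMM moved the share of higher genes among all calls to 38.5%, against 50.8%, and the median log2 fold change of all genes to -0.07. They gave 3 higher and 9 lower ATF4 genes, in place of 5 and 6, and 2 lower ATF6 genes in place of 0, and turned the sign of Eif2ak3 (-0.056), Atf5 (-0.049), Ddit3 (-0.059), Cebpg (-0.017) and Mthfd2 (-0.053). Leaving out each library gave 5387 to 7153 changed genes over the table, 7 to 13 changed and 3 to 8 lower in the ATF4 arm, 1 to 2 lower in the XBP1 arm and 0 to 2 lower in the ATF6 arm. Log2 fold changes of 6 genes crossed 0 there: Eif2ak3 (-0.038 to 0.030), Atf5 (-0.035 to 0.068), Ddit3 (-0.061 to 0.057), Cebpg (-0.019 to 0.11), Mthfd2 (-0.018 to 0.046) and Creld2 (-0.078 to 0.013). None of these 6 passed in the fit reported. The cause of these changes was not tested. The replicate numbers did not pair the samples (correlations of same-numbered samples' deviations were 0.031, -0.0247 and -0.00481 over 15567 genes). The replicate block left 6179 genes changed, with 11, 5 and 3 in the ATF4, XBP1 and ATF6 arms, and ended the call of Hyou1. Depth limits Vldlr and Stc2, at 35 to 242 counts, and Htr2b, at 5 to 13 counts with DMSO.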
